A study of Mus musculus with 2 samples.

Results

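The mevalonate pathway of the liver was followed through 9 genes: the enzymes Hmgcs1, Mvk, Pmvk, Mvd, Idi1, Fdps and Fdft1, the regulator Srebf2 and the sterol carrier Stard4. A gene was taken through every probe set whose platform annotation named it alone, which gave 21 probe sets for the 9 genes, of 20380 probe sets and 12393 genes in all. No probe set named one of the 9 together with another gene. The study measured liver RNA of female mice, 2 months old, of C57BL/6J background and described as homozygous for a knockout of apoE. The diet group MAOO ate chow with 10% (w/w) of a maslinic acid-enriched olive oil (maslinic acid is a triterpene found in olives), and the diet group OO ate the same chow with 10% (w/w) olive oil, each for 4 weeks. Both groups are labelled with the knockout and both received olive oil, so by the labels neither the knockout nor the oil itself is compared. The Apoe signals given below go against a shared genotype. Each diet has 6 mice in the design text and 1 array here, and the sources used here do not say whether an array holds pooled RNA.

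The mevalonate pathway builds cholesterol and other isoprenoids from acetyl-CoA in the cytosol, the endoplasmic reticulum and peroxisomes. Hmgcs1 makes HMG-CoA, which HMG-CoA reductase turns into mevalonate; Mvk, Pmvk and Mvd phosphorylate and decarboxylate mevalonate to isopentenyl diphosphate. Idi1 isomerises that unit, Fdps joins such units to farnesyl diphosphate, and Fdft1 (squalene synthase) commits farnesyl diphosphate to sterols. The liver is a main site of this synthesis. SREBP-2, the product of Srebf2, is a membrane-bound transcription factor that is released when sterols in the endoplasmic reticulum are low and then raises transcription of these enzymes, of Stard4 and of its own gene.

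Upstream sequences are shown first for the enzyme that opens the pathway (Hmgcs1), the enzyme with the highest ratio between the arrays (Mvk), an enzyme that was higher with every probe set (Idi1) and the regulator (Srebf2). They come from RefSeq on GRCm38.p6, whose promoter table held 6 of the 9 genes, and all 4 lie on the plus strand and end at the base before the annotated start of the gene. The windows are chr13:119690101-119690350 for Hmgcs1, chr5:114444074-114444263 for Mvk, chr13:8885356-8885605 for Idi1 and chr15:82147019-82147268 for Srebf2. That of Mvk was shortened to the 190 bases between Mvk and Mmab, a cobalamin gene transcribed the other way. Capitals mark CCAAT, TCACCCCA and GGGCGG, each on either strand (ATTGG, TGGGGTGA and CCGCCC), letters that resemble sites described for NF-Y, for SREBP and for Sp1.
Hmgcs1: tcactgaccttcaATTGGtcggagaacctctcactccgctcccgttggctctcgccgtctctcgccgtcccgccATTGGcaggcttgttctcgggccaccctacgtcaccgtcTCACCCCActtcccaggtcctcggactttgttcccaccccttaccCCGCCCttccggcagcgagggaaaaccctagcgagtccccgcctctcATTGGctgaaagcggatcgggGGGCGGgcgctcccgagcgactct
Mvk: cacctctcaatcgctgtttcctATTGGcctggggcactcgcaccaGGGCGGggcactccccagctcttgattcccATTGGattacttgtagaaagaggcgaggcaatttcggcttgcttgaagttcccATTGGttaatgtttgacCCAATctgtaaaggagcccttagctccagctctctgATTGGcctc
Idi1: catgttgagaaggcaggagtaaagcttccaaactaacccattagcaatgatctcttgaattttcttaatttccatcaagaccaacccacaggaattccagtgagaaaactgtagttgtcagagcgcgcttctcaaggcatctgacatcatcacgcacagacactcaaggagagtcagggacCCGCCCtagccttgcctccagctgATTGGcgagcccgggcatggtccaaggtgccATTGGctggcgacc
Srebf2: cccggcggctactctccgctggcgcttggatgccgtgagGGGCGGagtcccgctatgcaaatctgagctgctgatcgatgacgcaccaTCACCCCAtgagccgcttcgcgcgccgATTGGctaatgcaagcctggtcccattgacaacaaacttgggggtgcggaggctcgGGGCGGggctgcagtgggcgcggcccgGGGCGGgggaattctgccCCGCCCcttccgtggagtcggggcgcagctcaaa
The letters were chosen with these sequences in view. CCAAT occurred 3 times upstream of Hmgcs1, 5 times upstream of Mvk, 2 times upstream of Idi1 and 1 time upstream of Srebf2, against at least 1 occurrence in 33.8% of 32536 upstream windows of 250 bases in the table. TCACCCCA was found upstream of Hmgcs1 and of Srebf2, 137 and 162 bases before the start, and in 1.36% of all windows. GGGCGG was found in each of the 4 windows and in 33.0% of all windows. Mvd, the pathway's decarboxylase, had 2 CCAAT and 1 GGGCGG in its 250 bases, and the 2 annotated starts of Pmvk had 1 CCAAT between them. No overlap occurred among the marked letters. These matches describe letters, not binding.

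The values are linear MAS5 signals, 1 for each probe set on each array. Both arrays had a 2% trimmed mean of 200.1 as deposited. Apoe, the targeted gene, read 7630 on the array labelled MAOO and 407.7 on the array labelled OO, 18.7-fold higher, although both are labelled with the same knockout. The sources used here do not place its single probe set relative to the disruption, so it does not check the knockout itself, but the difference goes against 2 arrays of 1 genotype, and each direction below is between the arrays as labelled. Hepatocyte markers were present on both arrays: 8 of 10 were measured, with summed signals of 59986 on the array labelled MAOO and 67810 on the array labelled OO. By representing probe set all 8 were lower on the array labelled MAOO (median log2 ratio -0.18). Further measured probe sets reached above 0 for Hnf4a (up to 0.64) and Tdo2 (up to 0.12). Of other cell types, 5 of 8 stellate, 5 of 6 endothelial and 8 of 8 macrophage markers were measured, with summed signals of 3486 and 3462, 2082 and 2319, and 6668 and 6457 on the arrays labelled MAOO and OO. Of the stellate markers 4 of 5 were higher on the array labelled MAOO (median log2 ratio 0.27), the bright Dcn being lower at -0.19, all 5 endothelial markers were lower (median -0.17), and 5 of 8 macrophage markers were higher (median 0.05), with Marco at -2.00. These counts stand beside 48.0% of all measured genes higher on that array. Of the cholangiocyte markers 0 of 4 read here were measured, and of the lymphocyte markers 2 of 6 (summed signals of 1270 on the array labelled MAOO and 690 on the array labelled OO), Ighm at 1.54 and Ptprc at -0.14.

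With 1 array per diet there is no test, standard error or p-value, and sizes are described beside those of all genes. Signals under a floor of 40.02 were set to it before log2 ratios were taken, always of the array labelled MAOO over the array labelled OO. A probe set counted as measured if it reached 80.04 on at least 1 array, and a gene was represented by its probe set with the highest mean signal. All 9 genes were measured, by 16 of their 21 probe sets. The other 5 probe sets, 1 each of Mvk, Fdps and Srebf2 and 2 of Fdft1, stayed under the minimum. The only repeat measurement is a further probe set of the same gene, which shares the hybridisation; over 1814 genes with several measured probe sets, the log2 ratios of 1 gene had a pooled SD of 0.23.

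**Figure D1:**
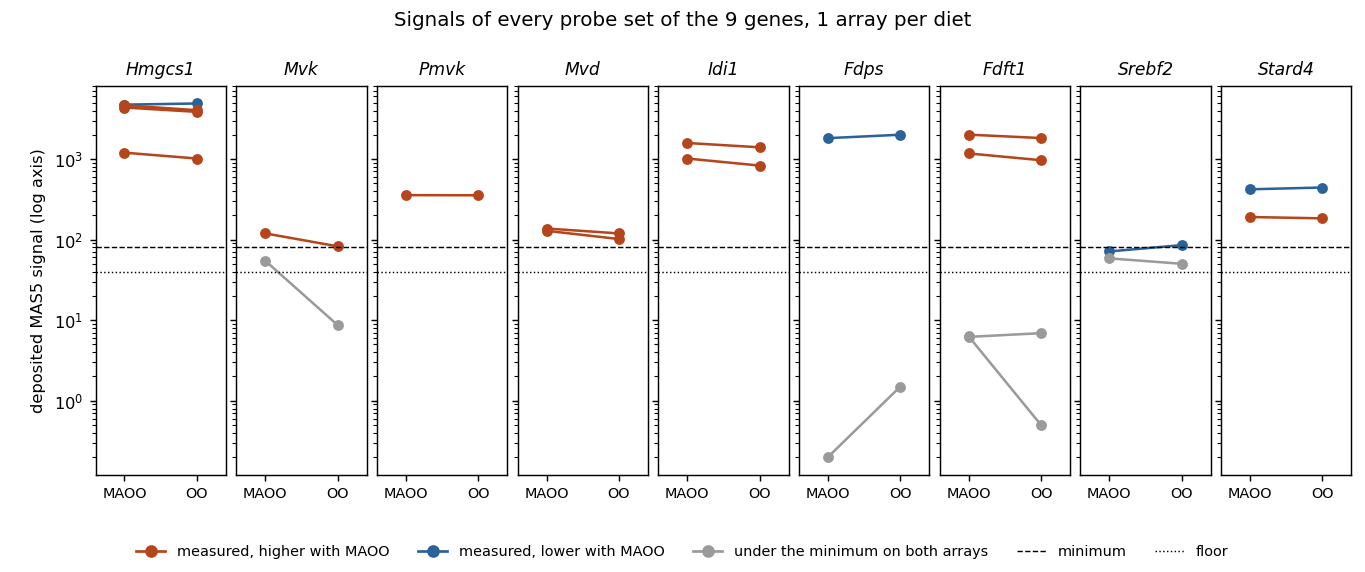
Deposited MAS5 signal (log axis) of each of the 21 probe sets on the array labelled MAOO (left) and the array labelled OO (right), 1 panel per gene and 1 line per probe set, with the floor of 40.02 and the minimum of 80.04. The lines are nearly flat for measured probe sets, and those of Mvk and Srebf2 lie close to the minimum.

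Enzymes of the pathway tended to read slightly higher on the array labelled MAOO, and none reached 1.5-fold. Of the 7 enzymes 5 were higher by their representing probe set and 2 lower, with a median log2 ratio of 0.14, against 48.0% of 5911 measured genes higher and a median of -0.01. The 5 include Pmvk, which was level at 0.0069 and turned to -0.0037 with quantile scaling. By probe set, 11 of the 13 measured enzyme probe sets were higher, with a median of 0.20, against 49.3% of 8524 measured probe sets. Probe sets of 1 gene read the same RNA and are no independent measurements. With the minimum signal doubled, 3 of 5 measured enzymes were higher and their median was 0.01. With the probe set of second highest mean signal the median was 0.28, but over fewer enzymes. Mvk and Fdps, the enzyme lower by its only measured probe set, were not measured with it. Among all 9 genes the count was 5 higher and 4 lower with a median of 0.01. Srebf2, one of the 4, passed the minimum only through the array labelled OO, where it read higher, so its sign was set by that filter; with the minimum applied to the mean of both arrays it was not measured, and the median of the other 8 genes was 0.07. In whole liver, fewer cells of a type and less RNA per cell cannot be told apart.

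Mvk, the kinase that first phosphorylates mevalonate, had the largest difference. Its measured probe set (1418052_at) read 119.4 on the array labelled MAOO and 82.5 on the array labelled OO, 1.45-fold higher, a log2 ratio of 0.53. The gene ranked 122 from the highest of 5911, and 2.06% of measured genes had a ratio at least as high. Its signal was barely above the minimum on the array labelled OO, in a range where ratios spread widely: among the 1899 measured genes with a mean signal under 160, 16.0% lay at least 1.2-fold up and 15.1% at least 1.2-fold down. The further Mvk probe set (1430619_a_at) read 54.8 on the array labelled MAOO and 8.7 on the array labelled OO, the same direction, but it lay under the minimum on both arrays. Mmab, which shares the intergenic stretch printed above with Mvk, was also under the minimum, with signals of 70.1 and 60.0 on the arrays labelled MAOO and OO.

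Pmvk, the kinase that acts next, was level. It read 356.3 on the array labelled MAOO and 354.6 on the array labelled OO, a log2 ratio of 0.01 on its only probe set. Mvd, the decarboxylase that yields isopentenyl diphosphate, read 137.3 on the array labelled MAOO and 119.3 on the array labelled OO, a log2 ratio of 0.20. Its other measured probe set read 128.6 and 101.6 on the same arrays, a log2 ratio of 0.34. Both probe sets of Mvd were thus higher on the array labelled MAOO, and both were dim.

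Idi1 and Fdft1 were modestly higher with each measured probe set, at signals where ratios spread less. Idi1, the isomerase, read 1580.8 on the array labelled MAOO and 1397.2 on the array labelled OO, a log2 ratio of 0.18, and 1013.7 against 829.5 on the same arrays with its other probe set, a log2 ratio of 0.29. Fdft1, squalene synthase, read 2005.9 on the array labelled MAOO and 1820.8 on the array labelled OO, a log2 ratio of 0.14. Its other measured probe set read 1173.0 and 966.2 on the same arrays, a log2 ratio of 0.28. In both genes the probe set with the lower signal gave the larger ratio. Of the 1413 measured genes with a mean signal of 640 or more, 43.5% were higher on the array labelled MAOO, so the bright genes leaned the other way. At least 1.2-fold higher were 4.03% of them. These shares are by representing probe set, by which neither Idi1 nor Fdft1 reached 1.2-fold. The 2 remaining Fdft1 probe sets read 6.9 or less on both arrays.

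Hmgcs1, which opens the cytosolic pathway, gave a direction that depended on the probe set. The representing one (1433443_a_at) read 4729 on the array labelled MAOO and 4888.7 on the array labelled OO, a log2 ratio of -0.05 that became 0.01 with quantile and with loess scaling. The other 3 gave log2 ratios of 0.18 (4355.7 on the array labelled MAOO and 3848.3 on the array labelled OO), 0.20 (4643.6 and 4033.6 on the same arrays) and 0.24 (1199.0 and 1013.6). A total of 3 of 4 probe sets was therefore higher on the array labelled MAOO, with a mean log2 ratio over the 4 of 0.14 and an SD of 0.13. The sign of Hmgcs1 thus rests on the probe set and the scaling.

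Fdps, which makes farnesyl diphosphate, was the enzyme whose only measured probe set was lower. It read 1815.4 on the array labelled MAOO and 2001.9 on the array labelled OO, a log2 ratio of -0.14, between the 2 enzymes that act before and after it, which were both higher. Its other probe set read 0.2 and 1.5 on the arrays labelled MAOO and OO and says nothing of the gene. A ratio at least as low was found for 23.0% of measured genes.

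**Figure D2:**
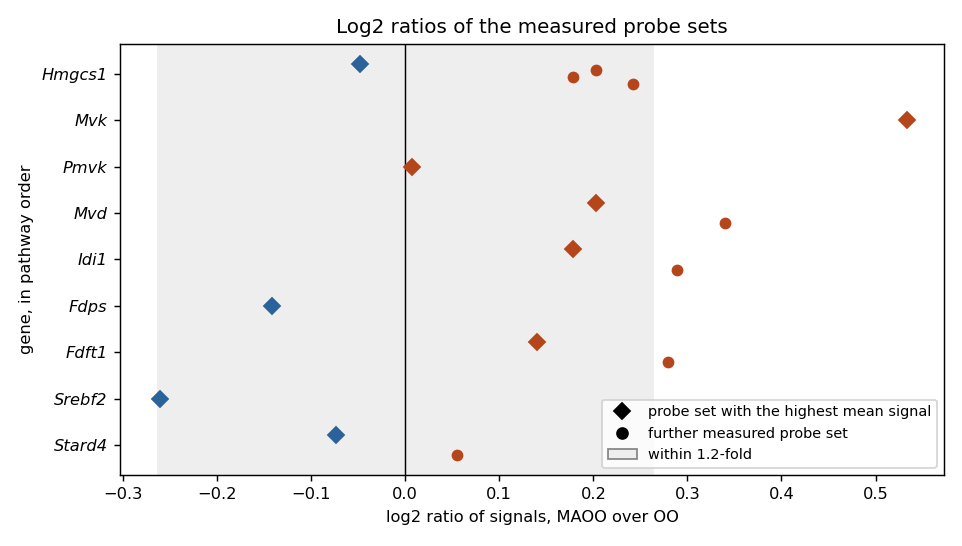
Log2 ratio of the array labelled MAOO over the array labelled OO for the 16 measured probe sets, by gene in pathway order; diamonds are the probe sets with the highest mean signal, and the grey band lies within 1.2-fold. Outside the band are 1 probe set each of Mvk, Mvd, Idi1 and Fdft1, all on the higher side.

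The regulator and the sterol carrier had probe sets of opposite sign. Srebf2 read 71.3 on the array labelled MAOO and 85.4 on the array labelled OO, a log2 ratio of -0.26, and passed the minimum only through the array labelled OO. Its other probe set read 58.5 and 50.1 on the same arrays, a log2 ratio of 0.22, under the minimum. The probe sets of Srebf2 thus gave opposite signs, both near the floor, and no direction can be given for the gene. Stard4, which carries cholesterol between membranes, read 420.9 on the array labelled MAOO and 443.0 on the array labelled OO, a log2 ratio of -0.07. Its other probe set read 190.6 and 183.5 on the same arrays, a log2 ratio of 0.05. Both Stard4 values lie within 1.2-fold with opposite signs.

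Across the 9 genes, 5 had more than 1 measured probe set. All measured probe sets were higher on the array labelled MAOO in 3 of them (Mvd, Idi1 and Fdft1), and the signs were mixed in 2 (Hmgcs1 and Stard4). Of the 1814 genes with several measured probe sets, 24.1% had all of them higher and 24.0% all of them lower. At least 1.2-fold higher were 4 of the 16 measured probe sets of the 9 genes and 0 were at least 1.2-fold lower, against 10.8% higher and 10.3% lower of all measured probe sets. By representing probe set, 1 of 9 genes (Mvk) was at least 1.2-fold higher, against 9.47% of measured genes, a share near the background, and 0 were lower by that size, against 9.52%. At least 1.5-fold higher were 0 of 9, against 1.47% of measured genes.

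**Figure D3:**
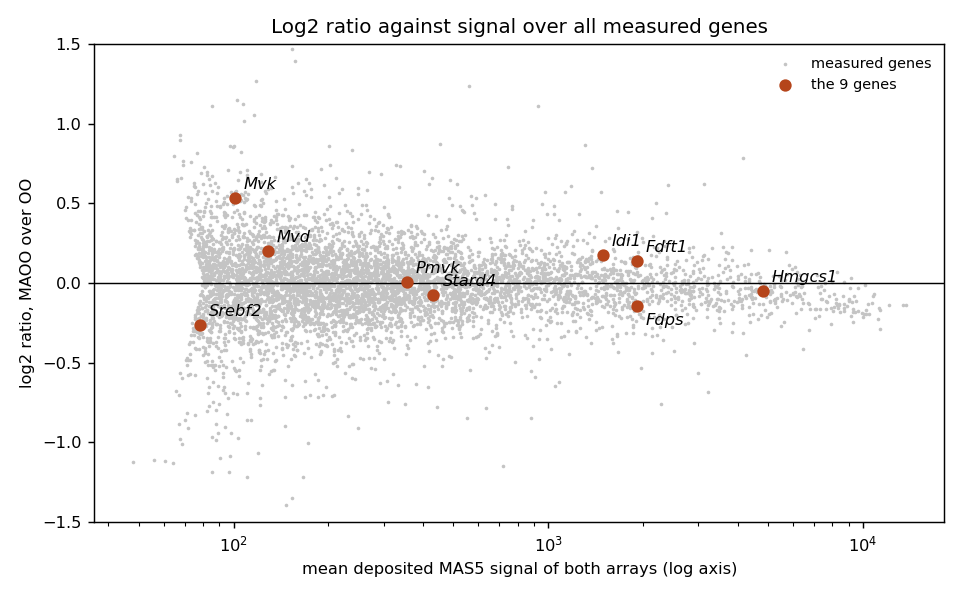
Log2 ratio of the array labelled MAOO over the array labelled OO against mean signal for 5911 measured genes (grey), with the 9 genes marked; 10 genes lie outside the drawn range. Mvk lies at 0.53 among dim genes of wide spread, while Idi1 and Fdft1 lie above 0 where most bright genes lie below it.

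Enzymes after squalene gave a like mixture. Of 11 measured genes 6 were higher and 5 lower, with a median log2 ratio of 0.11, and by probe set 8 of 14 were higher. Over all measured genes 48.0% were higher, and over all measured probe sets 49.3%, so these counts were near the background. The highest were Sqle, squalene epoxidase, at 0.31 (444.7 on the array labelled MAOO and 359.2 on the array labelled OO) and Msmo1, a sterol methyl oxidase, at 0.29. The lowest were Sc5d, a sterol desaturase, at -0.31 and Lbr, a sterol reductase of the nuclear envelope, at -0.29. By gene its median was near that of the enzymes up to squalene, of which 5 of 7 were higher with a median of 0.14. By probe set the medians were 0.13 after squalene and 0.20 up to it. Of the 13 probe sets up to squalene 11 were higher, 3 of them of Hmgcs1. Probe sets of 1 gene are no independent measurements, and the difference was not tested.

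Few genes around the entry of the pathway or on its branches were read, and they stand beside 48.0% of all measured genes higher on the array labelled MAOO. The 3 measured genes of acetyl-CoA and acetoacetyl-CoA metabolism were all lower by their representing probe sets. Acly, ATP citrate lyase, lay at -0.33, with its 3 probe sets between -0.38 and -0.30. Acss2 and Acat1 lay at -0.11 each. Further probe sets of both reached above 0, and the means over probe sets were -0.04 and -0.0011. HMG-CoA reductase was not analysed here. Of 6 measured genes that use isoprenoids outside sterol synthesis 1 was higher, Rabggta at 0.06, and 5 were lower, among them the farnesyltransferase subunit Fnta at -0.30 and Rabggtb at -0.18. Ggps1, which extends farnesyl diphosphate, lay at -0.02, and Nus1, of dolichol synthesis, at -0.01.

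Genes that process SREBPs, listed together with Srebf1, were split. Of the 4 measured genes of this list, Srebf1, which encodes the SREBP-1 proteins of fatty acid synthesis and is no processing gene, lay at -0.35. Scap, the escort protein of SREBPs, lay at -0.22. Insig2, which retains that escort, lay at 0.03, with its 3 probe sets between -0.08 and 0.23, and the protease gene Mbtps1 at 0.09. Of the other genes known as SREBP-2 targets 3 were measured and all 3 were higher, against 48.0% of measured genes; Sqle and Nsdhl are also among the genes after squalene: Tmem97 at 0.43 (355.2 on the array labelled MAOO and 264.3 on the array labelled OO), Sqle, given above, and Nsdhl, a sterol dehydrogenase gene, at 0.15. Of the 10 genes in that list 6 were not analysed here.

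Other genes differed between the arrays in both directions beside the enzymes. Over the 50 brightest genes the log2 ratio had a median of -0.14, and 47 were lower on the array labelled MAOO. Fdps at -0.14 and the representing Hmgcs1 probe set at -0.05 lay on the same side as these bright genes. Hepatocyte markers, at -0.18, had a median of -0.07 with quantile and -0.09 with loess scaling, while stellate markers, at 0.27, lay on the side of the enzymes. The part of signal strength, of cell makeup and of the Apoe difference in the enzymes' values was not tested.

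**Figure D4:**
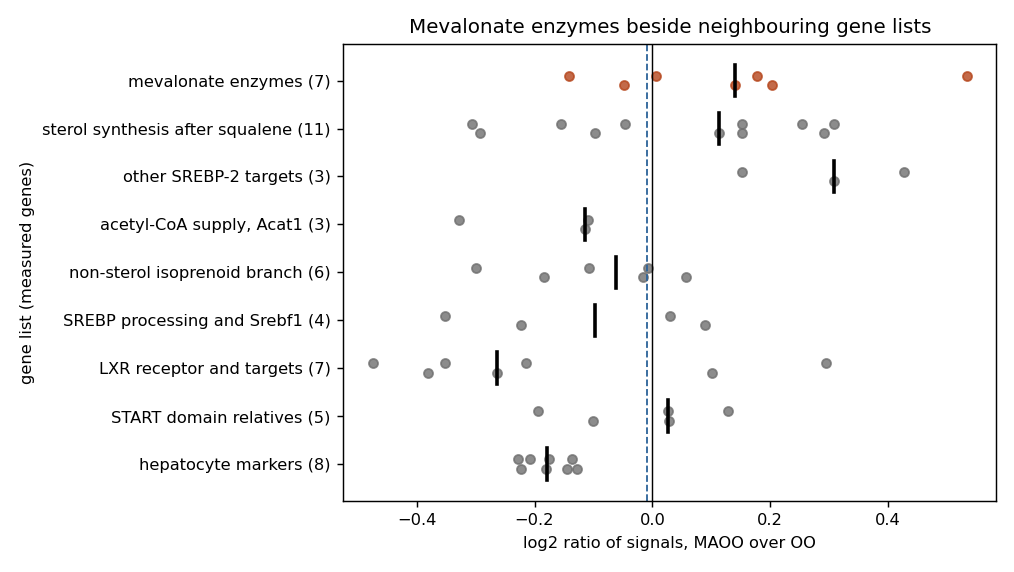
Log2 ratios of measured genes, the array labelled MAOO over the array labelled OO, in the mevalonate enzymes and neighbouring lists, with the number measured in brackets; black bars are list medians and the dashed line is the median of all measured genes (-0.01). The median of the mevalonate enzymes is 0.14 and that of hepatocyte markers -0.18.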

How the data were processed

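Liver RNA of 2 diet groups was measured on 1-colour Affymetrix arrays, 1 array per diet (MAOO and OO). The deposited values are linear intensities that the authors computed in MAS5, per the submitters' processing notes; its version and settings were not given in sources used here. Detection calls were not used. Each array was multiplied to reach a 2% trimmed mean of 500, signals under 100 were set to 100 and log2 ratios taken. The minimum was 200. These are 40.02 and 80.04 on the deposited scale, on which signals are printed. Control probe sets (64) were left out. The platform annotation named 1 gene for 20393 of 22690 probe sets, several for 691 and none for 1606. All 9 genes matched the RefSeq gene table by Entrez number. Of the deposited probe sets, 48.2% (MAOO) and 48.4% (OO) lay under the floor.

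With 1 array per diet no test was run and the number of arrays limits the precision. The members, lists and sizes (1.2-fold and 1.5-fold) were chosen with earlier results of these data known. The genes named are the 9 members, Apoe and, of each neighbouring list, up to 2 highest and 2 lowest measured genes; other genes named were chosen after their values were seen. Alternatives concerned scaling, floor, minimum and choice of probe set. The steps were tested on simulated data with 1.5-fold changes planted in genes brighter than Mvk and Srebf2. None of the 9 genes reached 1.5-fold, so recovery of differences of their size was not tested. Python 3.11.15, pandas 2.3.3, scipy 1.17.1 and statsmodels 0.14.6 were used.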

Additional observations from a re-analysis of the deposited data

Results flagged for a closer look

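The second probe set of Mvk was outside the measured ones and read above the floor on 1 array only. Its signal was 54.8 on the array labelled MAOO and 8.7 on the array labelled OO, where 8.7 lies under the floor of 40.02, so it was at least 1.37-fold higher. Both signals are under the minimum of 80.04. The flag took only probe sets above the floor on the array labelled MAOO and under it on the array labelled OO. Its direction was therefore set by that rule and is no support for the measured Mvk probe set.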

How the results depend on the processing

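No paired analysis was possible because there is 1 array per diet, so no array could be left out either. Under 12 alternatives, 100 of 101 values of the 9 genes moved by less than the SD of 0.23 between probe sets; the exception was Hmgcs1, at 0.20 with the probe set of second highest mean signal against -0.05. Its sign turned under 4 of 12 alternatives, that of Stard4 and of Pmvk under 1 each. Many of the 101 values could not move. Changes of floor or minimum leave bright probe sets as they are, and a gene with 1 measured probe set keeps it. By their other probe set Mvk, Fdps and Srebf2 were not measured. The median over the 9 genes ranged from -0.02 to 0.24, with 0.14 for the mean of all measured probe sets and 0.24 for the second probe set, and the median of the enzymes from 0.01 to 0.28. Of the 9 genes, 3 were higher with a minimum of 400, under which 6 were measured and 0 were at least 1.2-fold higher; otherwise 5 or 6 were higher. At least 1.2-fold higher were 2 with the mean of probe sets and 2 when _x_at and _s_at probe sets were left out, and 3 with the second probe set. Mvk stayed between 0.52 and 0.53 in the 10 alternatives that measured it, none of which used its other probe set. Quantile scaling moved the hepatocyte median to -0.07. Fewer genes measured accounts for the counts under the minimum of 400; the cause of other shifts was not tested. Mvk, Mvd and Srebf2 are limited by low signal over background.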

Other observations

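Genes tied to LXR, the nuclear receptor that senses oxysterols, leaned lower on the array labelled MAOO: 5 of 7 measured genes were lower, with a median log2 ratio of -0.26. Over all measured genes 48.0% were higher, with a median of -0.01. The lowest were Abcg1, a sterol exporter, at -0.47 (127.8 on the array labelled MAOO and 177.5 on the array labelled OO) and Mylip, which encodes a ligase that degrades the LDL receptor, at -0.38 (165.6 and 215.6 on the same arrays). Nr1h3, which encodes LXR alpha, lay at 0.29 and Abcg8, a biliary sterol exporter, at 0.10. At least 1.2-fold lower were 4 of the 7, against 9.52% of measured genes. Of these 4, Srebf1 (-0.35) was also listed with the genes of SREBP processing. Abcg5 at -0.2643 barely passed the cut, a log2 ratio of 0.263 in size, and missed it with loess scaling (-0.2607). Abcg1 was dim, and of measured genes with a mean signal under 160, 15.1% lay at least 1.2-fold lower. The list median lay between -0.27 and -0.26 in the 12 alternatives, but in each it was the value of Abcg5 alone. Abca1 turned from -0.21 to 0.20 with its other probe set, and as both lie above Abcg5 the median could not show it.

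Relatives of Stard4 that share its lipid-binding START domain differed little, with 3 of 5 measured genes higher and a median of 0.03, against 48.0% of all measured genes higher. They ran from Stard3, a late endosomal sterol carrier, at -0.19 to Pctp, a phosphatidylcholine carrier, at 0.13. Stard5 lay at -0.10, with its 3 probe sets between -0.29 and 0.03, and Stard7 at 0.03. The list median turned to -0.08 when _x_at and _s_at probe sets were left out.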
